A study of Mus musculus with 6 samples.

Results

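Transcripts of the machinery that docks, primes, fuses and recovers synaptic vesicles were followed in the mouse suprachiasmatic nucleus (SCN), the hypothalamic clock that receives light signals from the retina. The members were all probe sets whose platform gene symbol names a numbered synaptotagmin (Syt), synapsin (Syn), Vamp, syntaxin (Stx), syntaxin binding protein (Stxbp), Snap, complexin (Cplx), Rims or Unc13 gene, a Rab3 or Sv2 gene, Syp or Nsf. This rule used names and no measured value. It gave 112 probe sets of 59 genes, out of 22626 probe sets and 12393 genes named by a single symbol. Of these, 65 probe sets of 42 genes had signals high enough to be tested, and 0 of these passed the test between light pulse and sham light pulse after adjustment over all probe sets tested.

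A synaptic vesicle fuses when a Vamp protein of its membrane zips together with a syntaxin and a Snap protein of the target membrane into a SNARE complex. Synaptotagmins sense the calcium that triggers fusion, complexins and syntaxin binding proteins act on the SNARE proteins, Rims and Unc13 proteins dock and prime vesicles at the active zone, Rab3 GTPases and synapsins handle the vesicle supply, and Nsf takes used SNARE complexes apart. SCN neurons are largely GABAergic and also release peptides, and the same protein families serve fusion in the Golgi apparatus, endosomes and glia, so the symbol rule also takes in paralogs with roles outside the synapse.

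The 3 light pulse arrays came from adult male C57BL/6 mice, 2 to 4 months old, housed in 14 hours of light and 10 of dark and exposed to 2400 lux for 30 minutes, beginning 1 hour after lights off. The 3 sham light pulse arrays came from mice of the same strain, sex and age handled alike without light. SCN tissue was taken 1.5 hours after lights off, and was cut from 12 μm sections by laser capture microscopy, which lifts chosen tissue from a section. By the study's methods each array held 1 pool of 18 sections from 3 mice, though the sample descriptions speak of a single animal, and 1 ng of RNA went through 2 rounds of amplification to Affymetrix Mouse 430A 2.0 arrays. Signals are in arbitrary units on a linear scale, and a probe set reads a transcript through a group of short oligonucleotides. Whether pools shared mice is given in neither source, and the p-values take their error from the differences among these pools. In pooled tissue, fewer cells of a type and less RNA per cell cannot be told apart.

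The labels of tissue and treatment were checked first. All 8 markers of SCN neurons (Vip, Grp, Avp, Calb1, Clock, Penk, Arntl and Gad1) were among the probe sets tested, and 0 were called. Of 8 immediate-early genes, which neurons induce within minutes of stimulation, 6 were tested and 5 were called, all higher after light. The log2 fold changes were 4.94 for Fos and 4.84 for Egr1. The study had already reported these markers as detected, and Fos and Egr1 as induced, on the same arrays. These checks were therefore not independent of it. Arrays of the same group correlated at 0.893 to 0.935 in log2 signal, and arrays of different groups at 0.886 to 0.934. Light pulse replicate 3 stood apart in Ttr, a choroid plexus transcript, with a signal of 110323 against at most 295.6 on the other arrays. Of 10 listed choroid plexus markers 7 had a probe set, and Ttr was the 1 with signals high enough to be tested.

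Light pulse and sham light pulse were compared on log2 signals with limma, which fits each probe set by a linear model and moderates its error by that of the others. The fit covered the 45.7% of probe sets that ranked highest by their rank 3 signal, the third highest of the 6 arrays, a filter as wide as the one in the study. The cut on this signal fell at 118.2. Just inside it lay a Stx17 probe set at 118.4 and just outside it a Stx18 probe set at 115.4. Of the members 58.0% were tested. At an adjusted p under 0.05, 0 of the 65 release machinery probe sets were called, and the smallest adjusted p was 0.960. Over all tested probe sets 7 were called, or 0.0677%, so a count of 0 among 65 is near this background. Cyber-T, the test the study used, rewritten here, called 5 over all and 0 members at the same adjusted level. The study itself used a stricter correction and a looser unadjusted level. At that looser level Cyber-T gave 16 probe sets over all here.

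At an unadjusted p under 0.05, limma gave 1 member higher after light (Stx4a) and 1 lower (Snap25), which is 1.54% of members each way, against 2.11% and 2.21% of all tested probe sets. With Cyber-T 3 members reached that level, and the share over all tested probe sets was not counted for that test. All light pulse signals lay above all sham signals in 2 members (Stx4a and 1 probe set of Stx1a), or 3.08%, against 5.62% of all tested, and below them in 2 members (Snap25 and 1 probe set of Vamp7), or 3.08%, against 4.46%. None of the shares given with a background was above it. The Stx1a probe set had passed the filter through its light pulse signals. The log2 fold change, light pulse over sham, was above 0 in 33 members and below 0 in 32, and its median was 0.02, beside 0.00 over all probe sets tested.

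The precision of 3 arrays per group sets how far an absence of change can be read. The standard error of a log2 fold change had a median of 0.38 over members and 0.36 over all tested probe sets. Estimates stayed within 2-fold for 62 of 65 members (95.4%, against 94.8% of all tested). The 3 outside were Vamp8, 1 probe set of Stx17 and the Stx1a probe set named above, all above 0. In each of these 3, more light pulse than sham signals reached the cut of the filter. Their passing thus leaned on the light pulse signals. The whole 95% interval stayed within 2-fold for only 28 members (43.1%, against 42.5%). For the other members the interval reached past 2-fold, so that a change of this size was within the error.

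**Figure D1:**
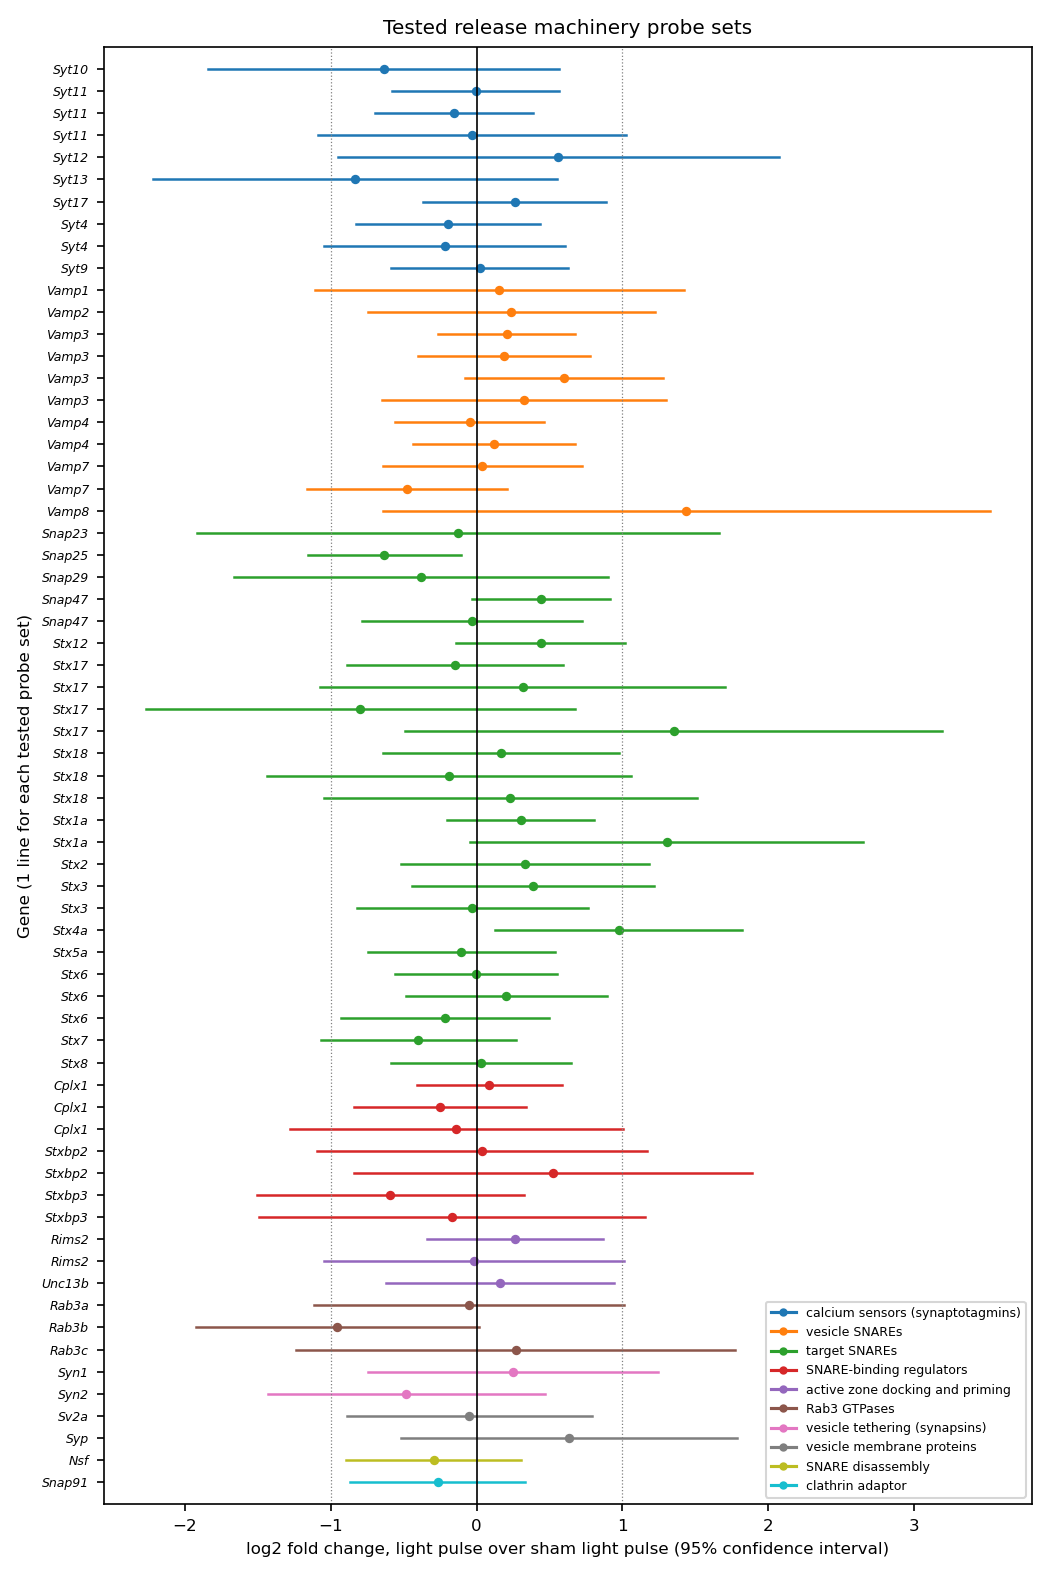
Each of the 65 tested release machinery probe sets is a point at its log2 fold change (x axis, light pulse over sham light pulse, 3 arrays each), with its 95% confidence interval from limma as a bar and its role as the colour. The intervals of Snap25 (-1.16 to -0.11) and Stx4a (0.13 to 1.82) leave out 0 before adjustment, and the dotted lines mark 2-fold.

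**Figure D2:**
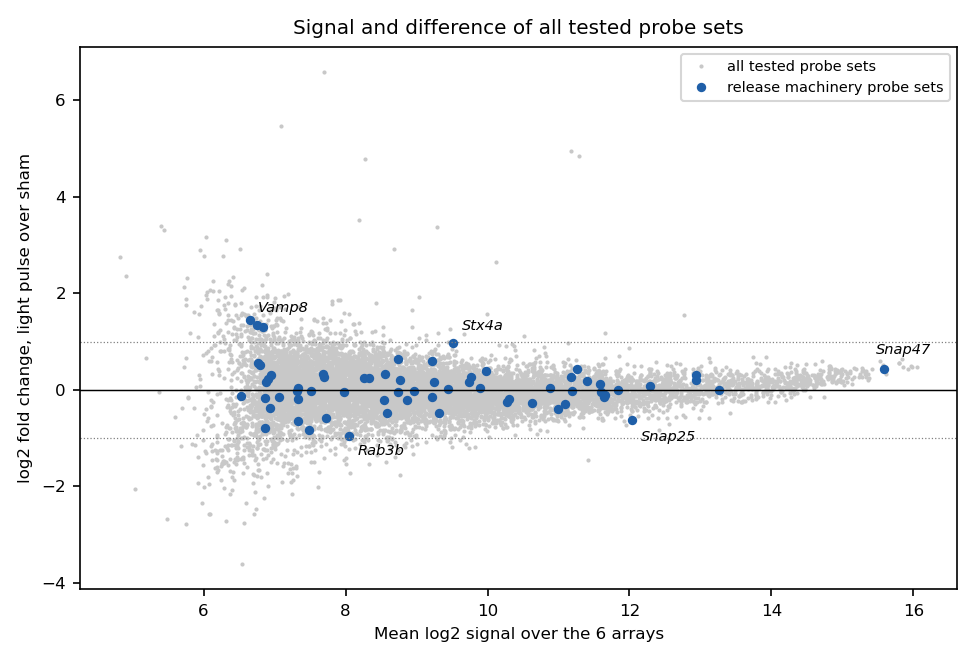
Log2 fold change (y axis, light pulse over sham light pulse) against mean log2 signal over the 6 arrays (x axis) for all tested probe sets in grey and the 65 release machinery probe sets in blue, with dotted lines at 2-fold. The members lie inside the grey cloud, 33 above and 32 below 0, and Snap47 is the member furthest to the right.

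Of the synaptotagmins, the calcium sensors of fusion, 10 probe sets of 7 genes were tested, 3 above 0 and 7 below, with a median log2 fold change of -0.09. Syt9, one of the sensors that can drive fast release, had signals of 618.4, 775.2 and 695.0 after sham and 713.7, 783.6 and 623.3 after light. The groups overlapped throughout their range, and the log2 fold change was 0.02 (standard error 0.28). Syt1, the main sensor of fast release in forebrain neurons, was not tested, with signals of 67.6, 143.9 and 77.2 after sham and 160.8, 42.6 and 13.7 after light. Syt2, its close relative, was also below the level for testing, at 55.2, 49.9 and 38.7 after sham and 9.9, 98.2 and 77.9 after light. At the probe sets given, both genes had their highest and lowest signals on light pulse arrays. The other Syt2 probe sets had their lowest signals on sham arrays. A low signal of a probe set does not show that a transcript is absent.

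Among the paralogs outside the fast sensors, Syt11 and Syt4, which bind calcium weakly or not at all, were read by several probe sets. Syt11 signals at its most intense probe set were 12924, 8089 and 8992 after sham and 13934, 9437 and 7048 after light, a log2 fold change of -0.01 (standard error 0.27). The ID of this probe set ends in _x_at, which marks oligonucleotides that may also bind other transcripts. All 3 tested Syt11 probe sets lay on the same side of 0. Syt4 signals were 1449, 1554 and 1088 after sham and 877.4, 1449 and 1288 after light, at -0.19 (standard error 0.29). Syt10, whose gene is used to drive Cre recombinase in SCN neurons, had signals of 218.3, 318.9 and 117.9 after sham and 193.2, 67.6 and 166.6 after light, at -0.64 (standard error 0.56). Syt13 was lowest on light pulse replicate 3, at 41.0, with 277.8 and 213.4 on the other light pulse arrays and 178.5, 222.9 and 346.6 after sham. Its log2 fold change of -0.83 (standard error 0.64) rested on that array, since without it the value was 0.022. Syt17, at 0.26, and Syt12, at 0.56, made up the rest of the values above 0.

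Of the vesicle SNAREs, 11 probe sets of 6 Vamp genes were tested, 9 above 0 and 2 below, with a median of 0.19. Vamp2, the synaptobrevin of most central synapses, had signals of 381.5, 125.0 and 465.1 after sham and 332.0, 377.5 and 290.8 after light. The 3 light pulse signals lay between the sham extremes, and the log2 fold change was 0.24 (standard error 0.46). Vamp1, the second synaptobrevin, gave 104.0, 78.5 and 171.3 after sham and 150.4, 126.1 and 102.1 after light, at 0.16 (standard error 0.59). For both genes sham light pulse replicate 2 was the lowest array, and without it the values were -0.35 for Vamp2 and -0.10 for Vamp1.

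Vamp3, the synaptobrevin of endosomes and glia also called cellubrevin, had 4 tested probe sets, all above 0, from 0.19 to 0.60. At the most intense, signals were 7787, 6810 and 7306 after sham and 10498, 8206 and 6909 after light, and the groups overlapped. Of the 4, the probe set at 0.60 is the one whose ID does not end in _x_at. Vamp7, a SNARE of late endosomes and neurites, was below all sham signals at 1 probe set, with 439.9, 477.9 and 442.6 after sham and 306.1, 267.6 and 421.5 after light, a log2 fold change of -0.48 (standard error 0.32). Its other probe set, with higher signals, lay at 0.04, so the separation was not seen there. Vamp8, an endosomal SNARE, had the highest log2 fold change of any tested member, 1.44, with a standard error of 0.97. Its signals were 234.1, 14.1 and 69.1 after sham and 299.4, 67.0 and 225.7 after light, which overlap. Without sham light pulse replicate 2 the value was 0.38. More of its light pulse than of its sham signals reached the cut of the filter.

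The target SNAREs were the most numerous role, with 25 probe sets of 15 syntaxin and Snap genes tested, 13 above 0 and 12 below, and a median of 0.03. Snap25, the neuronal target SNARE cut by several botulinum toxins, was the member with the smallest p. Its signals were 3991, 6559 and 5472 after sham and 3620.0, 3151 and 3372 after light. Every light pulse array lay below every sham array, and the log2 fold change was -0.63 (standard error 0.24, 95% interval -1.16 to -0.11), which limma did not call (adjusted p = 0.960). Sham light pulse replicate 2 was the highest array, and without it the log2 fold change was -0.47. The unadjusted p was above 0.05 without that array, without sham light pulse replicate 3, without light pulse replicate 2 and without the intensity trend in the spread. For a single gene an exact two-sided permutation test of 3 against 3 arrays cannot give less than p = 0.1. Summed signals of 10 tested pan-neuronal markers ran from 25032 to 36523 after sham and from 32072 to 37154 after light, with 6 markers above 0 and 4 not, and their part in the Snap25 value was not tested.

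Stx1a, the syntaxin partner of Snap25 at the synapse, gave a different picture at each of its probe sets. The intense one had signals of 9371, 5296 and 7042 after sham and 8676, 8441 and 8930.0 after light, at 0.30 (standard error 0.23), with the light pulse arrays close together inside the sham range. The ID of the intense one ends in _x_at, so its signal may hold other transcripts. The weak one had 41.0, 76.5 and 121.6 after sham and 169.0, 158.1 and 214.5 after light. There all light pulse signals lay above all sham signals, at 1.30 (standard error 0.63, adjusted p = 0.960 by limma). This probe set passed the filter through its light pulse signals, while its sham signals of 41.0 and 76.5 lay below the cut of 118.2. Snap25 and Stx1a, whose proteins bind in the same complex, thus lay on opposite sides of 0, and neither was called.

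Stx4a, a plasma membrane syntaxin of many cell types, including glia, was the other member with an unadjusted p under 0.05. Its signals were 688.0, 767.1 and 272.1 after sham and 1369, 986.5 and 806.3 after light, so that the groups did not overlap. The log2 fold change was 0.97 (standard error 0.39, 95% interval 0.13 to 1.82, adjusted p = 0.960 by limma). Sham light pulse replicate 3 was the low array, and without it the value was 0.50. Its unadjusted p was above 0.05 without that array, without light pulse replicate 1, where the value was 0.77, and without the intensity trend. Summed signals of 8 tested astrocyte markers ran from 46250.1 to 53564 after sham and from 49358 to 54280.4 after light, and of 7 oligodendrocyte markers from 30565 to 55873 and from 39324 to 54089. The ranges of the groups overlapped for both marker lists, and their part in the Stx4a value was not tested.

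The other plasma membrane syntaxins, Stx2 and Stx3, lay at 0.33 (standard error 0.40) and at 0.38 (standard error 0.39), the latter at the more intense of its probe sets, whose partner was at -0.03. Among syntaxins of intracellular membranes, Stx12 of endosomes was at 0.44 (standard error 0.27), Stx7 of late endosomes at -0.40 (standard error 0.31) and Stx8, its partner, at 0.03 (standard error 0.29). Stx5a of the Golgi apparatus was at -0.11 and Stx6 of the trans-Golgi network at -0.01, 0.20 and -0.22 in its 3 probe sets. All of these overlapped between groups. Stx17, which acts in the fusion of autophagosomes with lysosomes, had tested probe sets on both sides of 0. The 95% intervals of those with the lowest and the highest value, -2.27 to 0.68 and -0.49 to 3.19, overlapped. Its probe set with the lowest value had signals of 222.7, 246.7 and 67.0 after sham and 118.4, 50.4 and 117.6 after light, at -0.80 (standard error 0.68). Its probe set with the highest value had 101.1, 15.8 and 192.0 after sham and 146.0, 268.5 and 129.7 after light, at 1.35 (standard error 0.86). That probe set passed the filter through its light pulse signals, while its sham signals of 101.1 and 15.8 lay below the cut. Both values moved with single arrays, the lower one to -0.39 without light pulse replicate 2 and the higher one to 0.30 without sham light pulse replicate 2 and 2.11 without sham light pulse replicate 3. The most intense Stx17 probe set lay between them at -0.15 (standard error 0.34).

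Snap47, a Snap25 relative found on intracellular membranes, had the member probe set with the highest signal. It is named for that after its values were seen. The ID of this probe set ends in _x_at, so its signal may hold other transcripts. The signals were 48563, 50038 and 31168 after sham and 55010.4, 45118 and 75872 after light, at 0.44 (standard error 0.22). Sham light pulse replicate 3 was lowest and light pulse replicate 3 highest. The same order was general at the top of the signal range: of the 50 most intense tested probe sets, Snap47 among them, 49 were lowest on sham light pulse replicate 3 and 39 were highest on light pulse replicate 3. All 50 lay above 0, with a median of 0.37, and after quantile normalization, which gives every array the same distribution, that median was 0.00. The Snap47 value then turned to -0.0059. The other Snap47 probe set had signals of 2984, 1341 and 3275 after sham and 2283, 3140.3 and 1710 after light, at -0.03 (standard error 0.35).

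Of the regulators that bind SNARE proteins, 7 probe sets of 3 genes were tested, 3 above 0 and 4 below, with a median of -0.14. Cplx1, the complexin that clamps and promotes fusion at many fast synapses, had signals of 5143, 4817 and 4568 after sham and 4928, 6459 and 4259 after light. The difference was 0.09 (standard error 0.23), with a 95% interval from -0.41 to 0.58 that lies within 2-fold. Its other tested probe sets were at -0.25 and -0.14. Cplx2, the second widespread complexin, stayed below the level for testing at 37.0, 82.0 and 97.1 after sham and 38.0, 120.3 and 123.2 after light. Stxbp3, also called Munc18c and a partner of Stx4, had signals of 278.4, 343.5 and 182.8 after sham and 121.7, 206.8 and 202.8 after light, at -0.59 (standard error 0.43). The value of its partner Stx4a was on the other side of 0. Stxbp2 (Munc18b), known from secretion in blood cells, lay at 0.04 and 0.52 in its tested probe sets.

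At the active zone, 3 probe sets of 2 genes were tested, 2 above 0 and 1 below. Rims2, a scaffold that ties vesicles and calcium channels to the active zone, had signals of 2545, 2516 and 1459 after sham and 2892, 2212 and 2517 after light. Apart from the low sham light pulse replicate 3 the arrays were alike, and the log2 fold change was 0.26 (standard error 0.28). Unc13b (Munc13-2), a priming factor, had 321.2, 691.6 and 843.2 after sham and 690.8, 655.7 and 579.9 after light, at 0.16 (standard error 0.36). Unc13a (Munc13-1), the priming factor of most central synapses, was not tested, at 3.7, 78.2 and 23.4 after sham and 49.2, 69.0 and 15.5 after light.

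The Rab3 GTPases, which mark vesicles ready to dock, gave 3 tested probe sets of 3 genes, 1 above 0 and 2 below. Rab3b had the lowest log2 fold change of any tested member, -0.95 (standard error 0.45, 95% interval -1.92 to 0.01). Its signals were 347.8, 425.6 and 340.0 after sham and 97.1, 351.2 and 202.7 after light. The sham arrays were close together, and light pulse replicate 2 lay among them while the other light pulse arrays lay below; without light pulse replicate 1 the value was -0.47. Rab3a, the most studied paralog, had 260.8, 152.9 and 423.5 after sham and 277.6, 420.2 and 129.8 after light, at -0.05 (standard error 0.50). Rab3c had 195.2, 389.9 and 90.1 after sham and 448.3, 66.0 and 403.4 after light, at 0.27 (standard error 0.70). For Rab3a and Rab3c the spread within a group reached 3-fold or more in the light pulse group, and both intervals reached past 2-fold.

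The synapsins, which hold vesicles in the reserve pool, gave 2 tested genes on opposite sides of 0. Syn1 had signals of 347.6, 131.4 and 566.6 after sham and 331.2, 345.1 and 380.4 after light, at 0.25 (standard error 0.46). The light pulse arrays were alike, and both sham extremes lay outside them. Syn2 had 1183, 823.7 and 438.2 after sham and 901.2, 599.3 and 290.1 after light, at -0.48 (standard error 0.44), with overlap. That value was -0.035 without light pulse replicate 3, -0.16 without sham light pulse replicate 1 and -0.87 without sham light pulse replicate 3. Syn3 was not tested, at 94.9, 6.2 and 13.3 after sham and 39.6, 16.4 and 96.6 after light.

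Syn1 and Stxbp3 are shown by sequence because theirs were the member promoters with a complete cyclic AMP response element (CRE), the site through which light signals are known to act on immediate-early genes. The windows run from 250 bases before to 50 after the start of the gene in RefSeq annotation of GRCm38.p6. The Syn1 window is chrX:20920869-20921168 and the Stxbp3 window chr3:108840453-108840752, both on the minus strand, printed 5′ to 3′ with the letters TGACGTCA in capitals.
Syn1: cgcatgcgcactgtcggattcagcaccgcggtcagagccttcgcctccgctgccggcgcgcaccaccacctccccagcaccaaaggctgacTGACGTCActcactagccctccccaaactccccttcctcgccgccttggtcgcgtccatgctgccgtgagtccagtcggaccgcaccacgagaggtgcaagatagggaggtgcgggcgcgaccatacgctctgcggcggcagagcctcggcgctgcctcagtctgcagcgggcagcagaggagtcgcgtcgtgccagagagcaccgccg
Stxbp3: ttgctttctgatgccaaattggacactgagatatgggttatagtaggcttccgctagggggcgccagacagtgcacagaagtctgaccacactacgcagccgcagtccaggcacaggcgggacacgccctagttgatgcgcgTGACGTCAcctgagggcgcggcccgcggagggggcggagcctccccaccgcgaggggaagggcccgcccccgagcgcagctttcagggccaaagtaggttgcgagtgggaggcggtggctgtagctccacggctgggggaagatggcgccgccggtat
The CRE begins 159 bases before the start in Syn1 and 108 bases before it in Stxbp3.

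Windows were given for 46 of the 59 genes, and each motif was searched on both strands. The letters TGACGTCA, the same on both strands, stood in 2 of the 46 (4.35%), against 2.03% of 27025 genes. The shorter form, TGACG or CGTCA, which every full CRE also holds, stood in 16 (34.8%, against 23.0%), Stx1a, Stx4a, Cplx1 and Rab3a among them. CACGTG, the E-box bound by the CLOCK and BMAL1 proteins, stood in 7 (15.2%, against 8.09%), which were Cplx3, Nsf, Stx6, Stxbp2, Syt6, Unc13b and Vamp4. TATAAA or TTTATA stood in 3 (6.52%, against 15.7%), which were Rab3b, Stx2 and Stx3. A match describes letters in a window and is not a measured binding site. Syn1 and Stxbp3, with the full CRE, lay at 0.25 (standard error 0.46) and -0.59 (standard error 0.43), and neither was called. The other tested Stxbp3 probe set lay at -0.17 (standard error 0.62).

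The vesicle membrane proteins gave 2 tested genes. Syp, synaptophysin, a standard marker of synaptic vesicles, had signals of 852.5, 131.6 and 357.2 after sham and 522.5, 738.4 and 385.8 after light, at 0.63 (standard error 0.54). The sham arrays spanned more than the light pulse arrays on both sides, and without sham light pulse replicate 2 the value was -0.058. Sv2a, a glycoprotein of vesicles and the binding site of levetiracetam, had 438.3, 249.8 and 757.9 after sham and 389.2, 482.5 and 398.8 after light, at -0.05 (standard error 0.39). Nsf, the ATPase that takes SNARE complexes apart, had 2190.3, 2212 and 2935 after sham and 2009, 2582 and 1482 after light, at -0.30 (standard error 0.28), with overlap, and without light pulse replicate 3 at -0.089. Snap91 (AP180), a clathrin adaptor that the symbol rule takes in and that is no SNARE, had 1276, 2170.2 and 1872 after sham and 1521, 1312 and 1486 after light, at -0.27 (standard error 0.28).

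**Figure D3:**
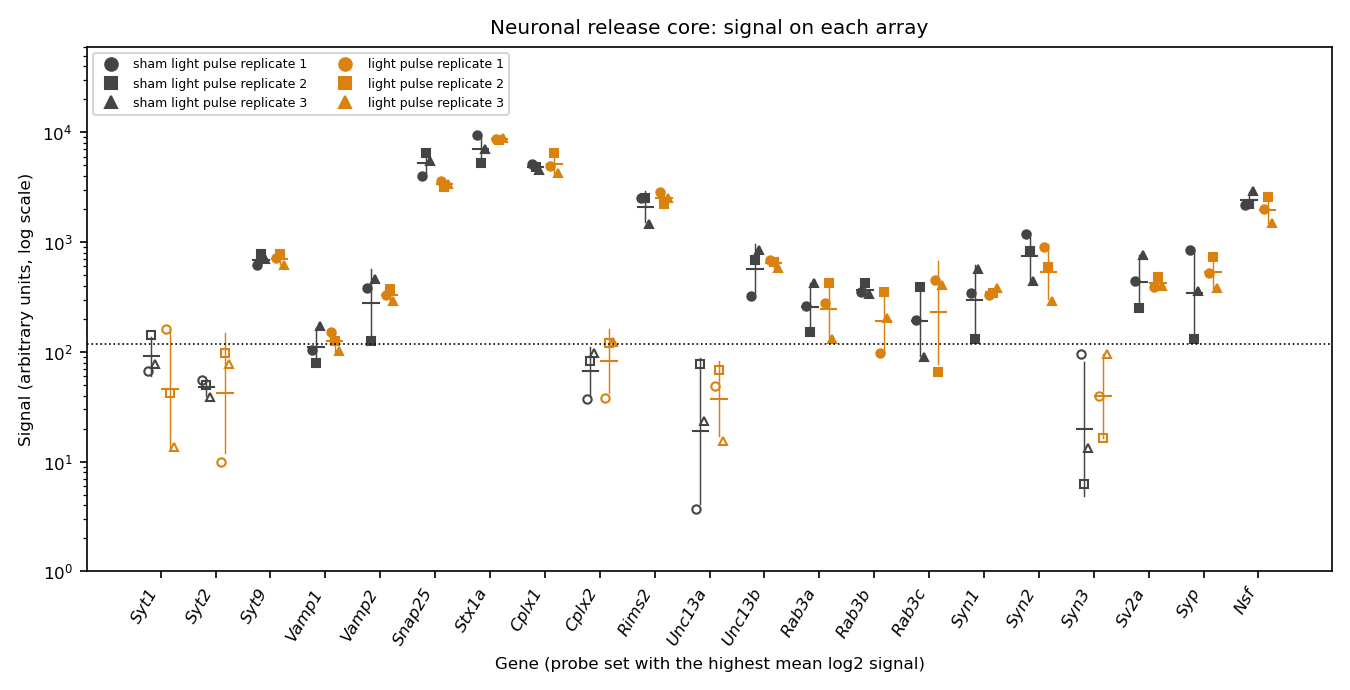
Signal in arbitrary units (y axis, log scale) on each of the 3 sham (grey) and 3 light pulse (orange) arrays for the 21 release core genes with a probe set, each at its most intense probe set, filled where tested and open where not; each horizontal bar is a group mean and each vertical bar an SD, both taken on log2 signals. The dotted line marks 118.2, where the filter fell, and Snap25 is the core gene whose groups do not overlap; probe sets differ in brightness, so heights are not compared between genes.

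Of the 21 genes of the neuronal release core with a probe set of a single symbol, 16 were tested, 10 above 0 and 6 not, with a median log2 fold change of 0.12 and 0 called. Signals of different probe sets are not on 1 scale, because each binds with its own efficiency, so no order of paralogs was drawn from them. Within families, the paralogs that lay above and below the level for testing can be named. Syt9 but not Syt1 or Syt2, Unc13b but not Unc13a, Cplx1 but not Cplx2, Cplx3 or Cplx4, Syn1 and Syn2 but not Syn3, and Rab3a, Rab3b and Rab3c but not Rab3d had a tested probe set.

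The 47 untested member probe sets had signals from 1.5 to 250.4, and 15 of them reached 118.2 on at least 1 array. In all, 17 member genes had no tested probe set, which besides those named above were Syt3, Syt5, Syt6, Syt7, Syt8, Stxbp4, Stxbp6, Stx19 and Vamp5. Among the 47, all light pulse signals lay above all sham signals in 1 probe set, of Syt2 (2.13%, against 7.58% of all untested probe sets), and below in 3, of Cplx3, Nsf and Syp (6.38%, against 2.95%). Over all 112 members without the filter the median log2 fold change was 0.06, beside 0.07 over all probe sets.

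Of the 42 tested genes, 15 were read by several tested probe sets. Of these 15, 6 had all their probe sets on 1 side of 0 (Stx1a, Stxbp2, Stxbp3, Syt11, Syt4 and Vamp3) and 9 had them on both sides (Cplx1, Rims2, Snap47, Stx17, Stx18, Stx3, Stx6, Vamp4 and Vamp7). None of these probe sets had an unadjusted p under 0.05 by limma, so their sides of 0 lay within the error. The share of genes with both sides over the whole array was not counted. Probe sets can bind different ends or splice forms of a transcript, and their part in these values was not tested. Of the 65 tested, 43 carried the plain ID ending that marks no shared target.

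The arrays differed from each other in the members, beyond the comparison of the groups. Sham light pulse replicate 2 was the lowest array for 16 of the 65 members (24.6%, against 21.6% of all tested probe sets) and for 6 of the 16 core genes, namely Stx1a, Sv2a, Syn1, Syp, Vamp1 and Vamp2. It was the highest array for Snap25 and Rab3b. Summed signals of the pan-neuronal markers (25032) and of the oligodendrocyte markers (30565) were also lowest on that array, and their part in the member values was not tested. Light pulse replicate 3 was lowest for 18 members (27.7%, against 18.3% of all tested) and highest for 5 (7.69%, against 19.1%), and light pulse replicate 1 was highest for 18 (27.7%, against 15.0%). Without light pulse replicate 3, which also held the Ttr signal, the median log2 fold change of the members was 0.19, beside 0.02 over all tested probe sets, and 0 members were called.

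**Figure D4:**
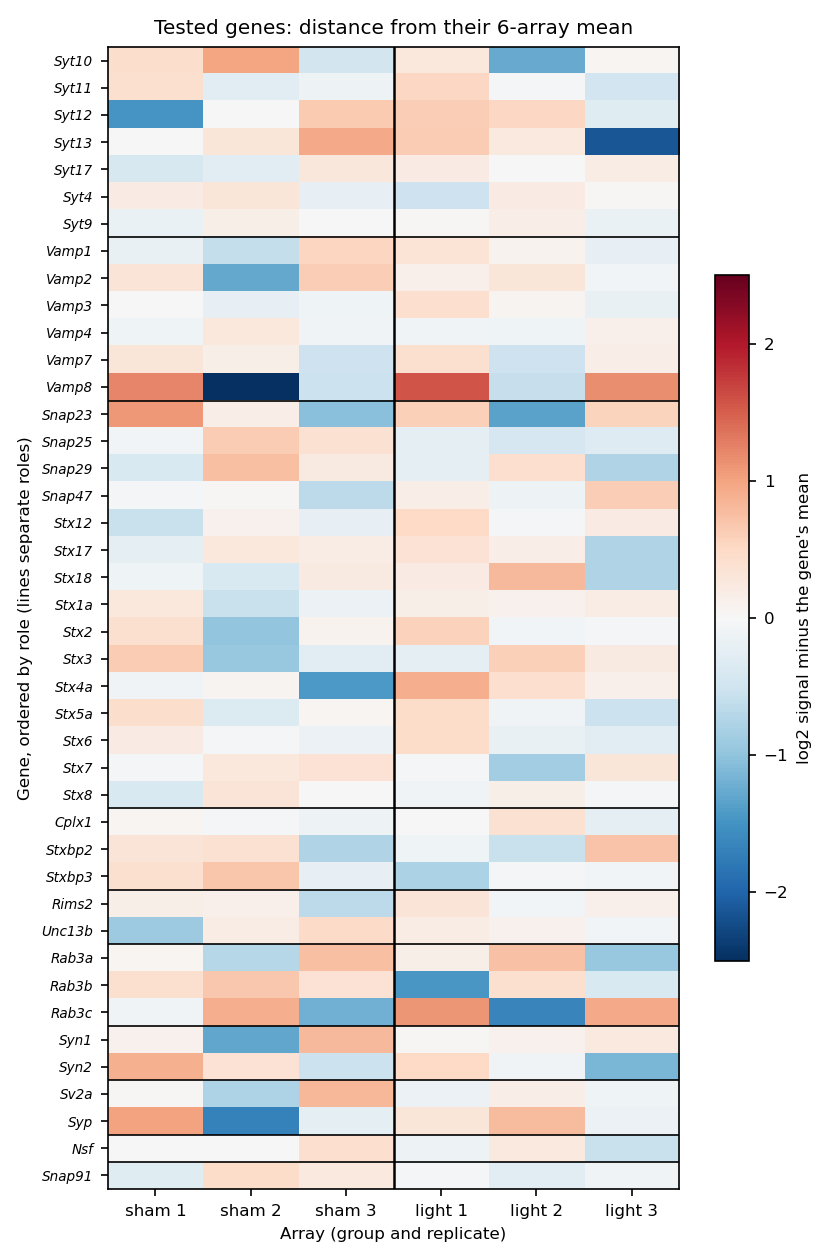
Colour shows the log2 signal minus the mean of the gene over the 6 arrays (red above, blue below) for the 42 tested genes (rows, by role, each at its most intense probe set) on the 3 sham and 3 light pulse arrays (columns). Sham replicate 2 is blue for Vamp2, Vamp8, Syn1 and Syp and light pulse replicate 3 for Syt13, and rows of the same role do not share 1 pattern over the arrays.

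Genes that work beside the release machinery were read from 3 further lists. With 0.0677% of all tested probe sets called, a count of 0 is near the background for lists of this size. Of 24 listed partners at the active zone and in priming, 14 were tested, 4 above 0 and 10 not, with a median of -0.22 and 0 called. The most intense were Cadps2, a priming factor of dense core vesicles, at 0.04 (standard error 0.18), and Pclo, the scaffold piccolo, at -0.02 (standard error 0.23). Of 23 genes of vesicle endocytosis 19 were tested, 11 above 0 and 8 not, with a median of 0.01 and 0 called. The most intense were Hspa8, the chaperone that uncoats clathrin vesicles, at 0.56 (standard error 0.20, adjusted p = 0.960 by limma), and Clta, a clathrin light chain, at 0.21 (standard error 0.18). Hspa8 is among the 50 most intense probe sets, and another of its probe sets lay at -0.01. Of 30 other proteins of the vesicle membrane and cargo 20 were tested, 10 above 0 and 10 not, with a median of 0.06 and 0 called. The most intense were Atp6v1e1, a subunit of the proton pump that fills vesicles, at 0.19 (standard error 0.18), and Dnajc5, the cysteine string protein, at -0.0038 (standard error 0.19).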

How the data were processed

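RNA from laser-captured SCN tissue was measured on 6 one-colour arrays, 3 per group, with groups and replicate numbers taken from the sample labels. The authors made the deposited intensities with the Affymetrix Microarray Suite method (MAS5) in GCOS software and scaled them per array. They are on a linear scale and carry no present calls here. Intensities are no counts, so the number of arrays, 3 per group, limits the precision. Probe sets were named from the platform's annotation: 20380 had 1 symbol, 691 several and 1555 none, and 1 member probe set with several symbols was not used.

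From these values the log2 was taken with no offset. The rank 3 signal of the 6 arrays stood in for the study's filter on present calls, with the same number of probe sets kept. Groups were compared with limma 3.58.1 in R 4.3.3 (lmFit and eBayes, prior following intensity), two-sided, at a threshold of 0.05 after Benjamini-Hochberg adjustment over every tested probe set. Cyber-T was rewritten from its description (window 101, prior weight 10). Both were run on simulated data with known changes, and how many of these changes each test called is not given here. Genes were named by rule. The release core was read at the probe set with the highest mean log2 signal. Tested members at an unadjusted p under 0.05 by limma or among the 3 highest and 3 lowest log2 fold changes were added. Of each partner list its 2 most intense genes were named. Other members named were chosen after their values were seen. Members and lists were chosen with earlier results of these data known, so no test over the members was made. Deviations of same-numbered arrays correlated at 0.096, -0.192 and -0.129, so the numbers were not taken to pair arrays. Promoter windows came from RefSeq annotation of GRCm38.p6. The alternatives were 2 other filters, 2 normalizations, an offset of 50, no trend, Cyber-T, a replicate block, no shared-target probe sets, 1 probe set per gene, and leaving out each array.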

Additional observations from a re-analysis of the deposited data

How the results depend on the processing

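Under all 16 alternatives 0 release machinery probe sets were called, and the lowest adjusted p of the 23 member probe sets followed was 0.889. Over all tested probe sets 4 were called without the intensity trend, in place of 7. Members at an unadjusted p under 0.05 numbered 2 of 65, and 4 of 112 with no filter. They numbered 5 with a common 75th percentile and 1 without the intensity trend. That 1 was the weak Stx1a probe set, which passed the filter through its light pulse signals. When an array was left out such members numbered 1 to 4 (1 without light pulse replicate 1, 4 without sham light pulse replicate 1). With the replicate block 0 members were called and 3 had an unadjusted p under 0.05. The share over all tested probe sets was not counted under these alternatives, so the counts cannot be read against a background. The median log2 fold change of the members ran from -0.033 to 0.19 when an array was left out. Of 346 values of these 23 probe sets under the alternatives 326 kept their side of 0 and 20 did not. With a common 75th percentile Rab3a came to 0.021 and Sv2a to 0.024, and with quantile normalization Snap47 came to -0.0059. When an array was left out, values crossed 0 for Cplx1 (-0.078 to 0.22), Rab3a (-0.43 to 0.41), Rab3c (-0.27 to 1.16), Rims2 (-0.0027 to 0.40), Sv2a (-0.45 to 0.35), Syn1 (-0.34 to 0.72), Syp (-0.058 to 1.29), Syt9 (-0.061 to 0.11), Unc13b (-0.25 to 0.44), Vamp1 (-0.10 to 0.46), Vamp2 (-0.35 to 0.60) and Syt13 (-1.36 to 0.022). The cause was not tested. The others kept their side when an array was left out: Snap25 (-0.83 to -0.47), Stx4a (0.50 to 1.25), Rab3b (-1.40 to -0.47), Nsf (-0.49 to -0.089), Syn2 (-0.87 to -0.035), the intense and the weak Stx1a probe set (0.096 to 0.51 and 0.89 to 1.68), the lower and the higher Stx17 probe set (-1.40 to -0.39 and 0.30 to 2.11), Vamp8 (0.38 to 2.41) and Snap47 (0.22 to 0.61). The signals of 47 of the 112 member probe sets were too low to be tested.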
